A study of Mus musculus with 8 samples.

Results

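The cytosolic heat shock proteins and their transcription factor Hsf1 were examined in mouse 3T3-L1 adipocytes, a fibroblast line turned into fat cells in culture. The 10 genes were taken by symbol, which the deposited table writes in capitals: HSPA8, HSP90AA1, HSP90AB1, HSPA1A, HSPA1B, HSPA4, HSPH1, DNAJB1, HSPB1 and HSF1. Of these, 9 were among the 10663 genes of that table and all 9 passed the filter on low values, while Hspa1a was not listed and is not analysed here. RNA sequencing compared 4 libraries of adipocytes overexpressing miR-690, called miR-690oe, with 4 libraries of control adipocytes, all of 1 cell line at passage 2 to 3. The labels' protocols give a miR-690 mimic at 5 pM for every library, the controls included, and do not say what the control cells received instead. They do not state separate cultures either. A p-value here is therefore set against the spread of these 8 libraries, and that spread may be technical.

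Heat shock proteins are molecular chaperones that keep other proteins folded. Hsp70 proteins bind short exposed stretches of a client in a cycle driven by ATP, J proteins start that cycle, and nucleotide exchange factors end it, while Hsp90 takes over clients that are nearly folded, many of them kinases and nuclear receptors. Hsf1 is held inactive by chaperones and, under heat or protein stress, forms trimers that bind inverted GAA repeats called heat shock elements and raise the inducible members. In fat cells Hsp90 is known to stabilise kinases of insulin signalling and the nuclear receptor PPARgamma.

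The libraries held 31211349 to 38235522 reads in miR-690oe and 29773446 to 33816227 reads in controls over the listed genes, and values are given as CPM, reads scaled to a library sum of 1000000. Replicates of a group differed by more than sampling noise, with a chi-square per degree of freedom of 9.489 to 21.95 between miR-690oe libraries and 3.963 to 8.036 between control libraries. Replicate 1 of miR-690oe stood apart from the rest of its group, since its 3 pairs gave 16.99 to 21.95 and the other miR-690oe pairs 9.489 to 11.67. That library also had the lowest adipocyte marker sum, the highest preadipocyte marker sum and the lowest Hspa8 of all 8. Without it 3 of 9 members were called higher (Hsp90aa1, Hsph1 and Hspa4) and 1 lower (Hspa8, at -0.16, limma adjusted p = 0.00756). In that fit 2627 genes were called higher and 1648 lower over all genes, where 10658 were tested with all 8 libraries. Of 12 adipocyte markers 11 were listed, with Fabp4 at 5884 ± 652 CPM in miR-690oe and 6573 ± 333 CPM in controls (SD, n = 4 each), and their summed level was 10404 to 13654 CPM in miR-690oe and 12104 to 13364 CPM in controls. Of 11 preadipocyte and fibroblast markers 10 were listed, summing to 11691 to 15366 CPM in miR-690oe and 12289 to 14023 CPM in controls, so both sets were present. Called with the test described next, 0 of 11 adipocyte markers rose and 2 fell, and 3 of 10 preadipocyte markers rose and 1 fell. Over all genes 26% rose and 17.4% fell. With the trend over transcript length and GC content removed, as described below, the adipocyte markers had 0 higher and 0 lower. The preadipocyte markers then had 0 higher and 1 lower, against 7.34% and 9.06% of all genes. The part of either set in the results on heat shock genes was not tested. Of 10 macrophage and blood markers 3 were listed, at 21.45 to 24.12 CPM in sum in miR-690oe and 24.1 to 27.92 CPM in controls, and of 7 endothelial markers 1 was listed. Of the 3 macrophage and blood markers 0 were called higher and 2 lower, and with the trend removed 0 and 0. The shares of all genes are those given above. The endothelial marker was not called in either fit.

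As a group, the heat shock genes did not move one way. Hspa8 and Hsp90ab1, the constitutive cytosolic Hsp70 and Hsp90, fell in miR-690oe, and Hsp90aa1, the heat-inducible cytosolic Hsp90, and the exchange factor gene Hsph1 rose. Hspa1b (0.03), Dnajb1 (-0.09) and Hspb1 (-0.25 on the log2 scale, miR-690oe over control), also heat-inducible, did not pass the test. The changes were small, at 0.879 and 0.924 of control for Hspa8 and Hsp90ab1 and 1.11-fold and 1.138-fold for Hsp90aa1 and Hsph1. In bulk RNA, fewer cells of a type and less RNA per cell cannot be told apart. Hsf1 itself was at 0.972 of its control level and did not pass the test. Thus 2 of 9 members were called higher and 2 lower, where 26% and 17.4% of the 10658 genes tested were called in the same directions, and 43.4% in either. Of all calls 59.9% were higher in miR-690oe, and 46.4% were after quantile normalization. The share of members called lay near that background. Calls rest on limma, fitted to log2(CPM + 0.5) across all genes, with a Benjamini-Hochberg adjusted p under 0.05. At an unadjusted p under 0.05 there were 5 members, against 50.9% of all genes. In 1 member every miR-690oe library was above every control library and in 3 every one was below, against 22.4% and 15.9% of all genes (38.3% in either direction). The median log2 fold change of the members was -0.04, against 0.02 over all genes. The authors' deposited table listed 2 members as higher and 3 as lower at a false discovery rate under 0.05, against 24.7% and 20.6% of its genes (45.3% in either direction).

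**Figure D1:**
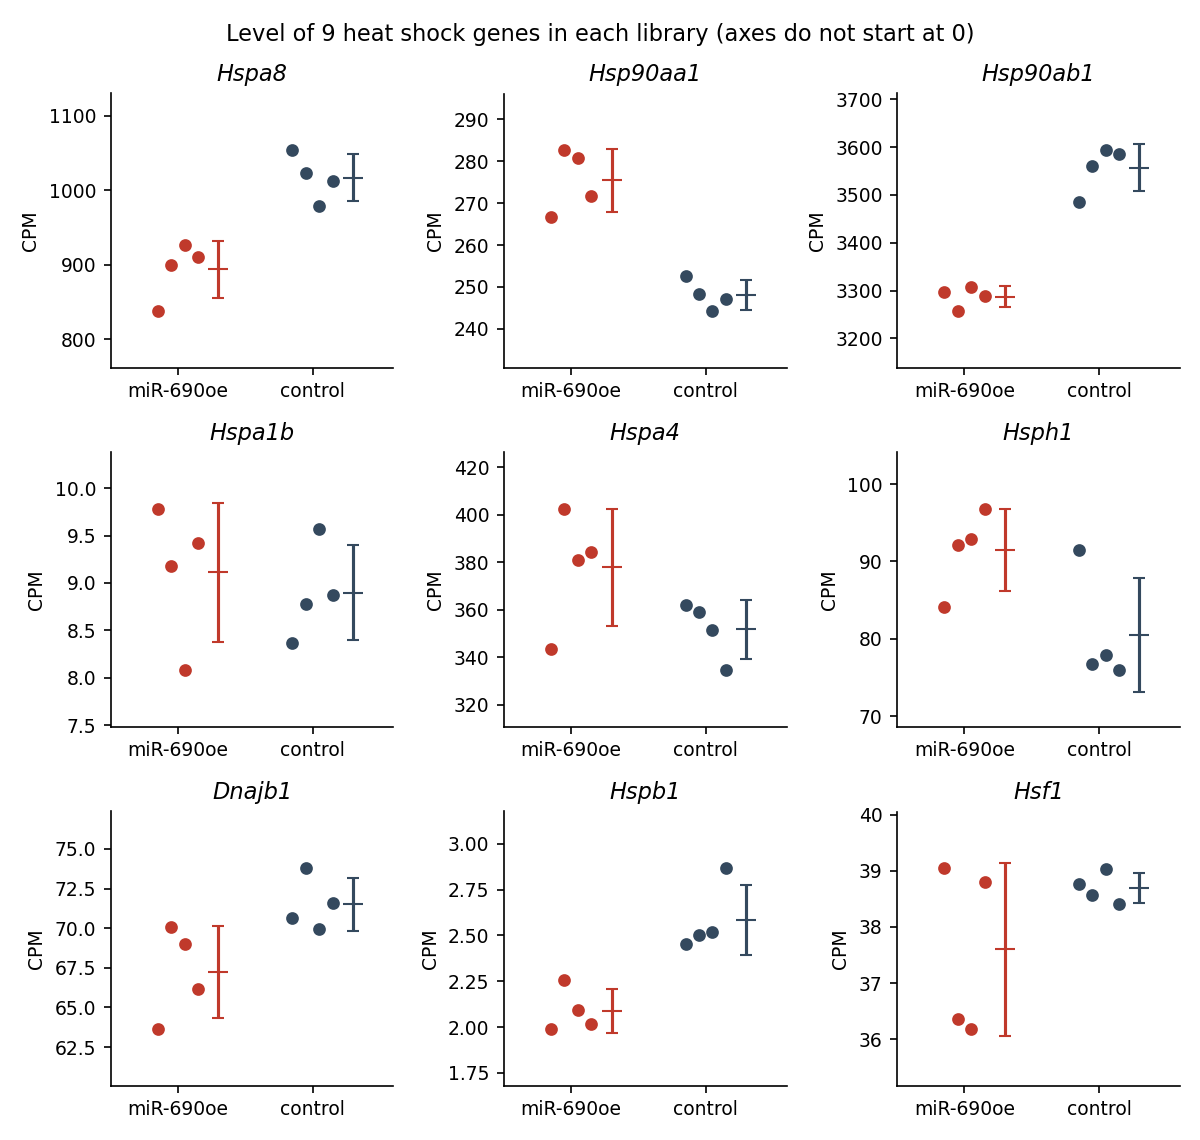
CPM of each of the 9 listed genes in the 4 miR-690oe libraries (left, red) and the 4 control libraries (right, blue), drawn in order of replicate number, with the mean and SD beside each group. The groups are apart for Hspa8, Hsp90aa1, Hsp90ab1 and Hspb1, and for Hsph1 the control library at 91.42 CPM lies among the miR-690oe libraries.

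In level per kilobase of transcript, the scale on which genes can be set side by side, Hsp90ab1 stood highest at 1305 ± 8.82 CPM per kb in miR-690oe and 1411 ± 19.5 in controls (SD, n = 4 each). Hspa8 followed with 373.3 ± 16.2 CPM per kb in miR-690oe and 424.7 ± 13.1 in controls. Hsp90aa1 and Hspa4 came next and lay within each other's spread, at 83.96 ± 2.29 and 81.82 ± 5.37 CPM per kb in miR-690oe and at 75.61 ± 1.08 and 76.19 ± 2.67 in controls. Hsph1 and Dnajb1 were also close, with Hsph1 at 24.06 ± 1.4 in miR-690oe and 21.17 ± 1.93 in controls, and Dnajb1 at 22.44 ± 0.97 in miR-690oe and 23.86 ± 0.557 in controls. Hsf1 was lower, with 17.87 ± 0.728 CPM per kb in miR-690oe and 18.39 ± 0.126 in controls. The inducible Hspa1b and the small heat shock protein gene Hspb1 were near the bottom, at 3.252 ± 0.262 and 2.246 ± 0.129 CPM per kb in miR-690oe and at 3.174 ± 0.178 and 2.78 ± 0.205 in controls. Summed, the 9 genes took 0.494% to 0.51% of reads in miR-690oe and 0.537% to 0.539% in controls, and most of that sum was Hsp90ab1.

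Hspa8 encodes Hsc70, the Hsp70 that cells make without stress, and lies on chromosome 9 from 40800984 to 40810087 of mm10. It stood at 837.8, 900.3, 926.5 and 910.4 CPM in the miR-690oe libraries and at 1054, 1023, 978.3 and 1012 CPM in the controls. All miR-690oe libraries were below all control libraries. Its log2 fold change, miR-690oe over control, was -0.19 ± 0.045 (SE), with a limma adjusted p = 0.00343. The adjusted p stayed between 0.00427 and 0.0157 with any 1 library left out, while quantile normalization ended the call (-0.08, limma adjusted p = 0.161). Of the 50-base stretches of the Hspa8 transcript, 74.8% also occur in transcripts of 13 other annotated genes, 70% in the gene model Gm15459 alone, so counting that splits such reads would make its level uncertain.

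Hspa1b is one of 2 adjacent, near-identical genes for the heat-inducible Hsp70, and lies on chromosome 17 from 34956436 to 34959238. Values were 9.781, 9.177, 8.08 and 9.42 CPM in miR-690oe and 8.367, 8.781, 9.572 and 8.871 CPM in controls. The groups overlapped fully, and the log2 fold change was 0.03 ± 0.079 (limma adjusted p = 0.776). The gene was read by 256 to 374 reads per library. Of its 50-base stretches, 62.3% are shared with the unlisted Hspa1a, so the entry may hold reads of both genes or lack those that fit both. Within libraries, the ratio of Hspa1b to Hspa8 was 0.01168, 0.01019, 0.008721 and 0.01035 in miR-690oe and 0.007937, 0.008584, 0.009785 and 0.008766 in controls. These ranges overlapped, with a difference in log2 ratio of 0.22 ± 0.106 (SE, exact two-sided permutation test, p = 0.0857, 0.129 adjusted over 3 ratios). With the trend over length and GC content removed, the difference was 0.21 (adjusted exact permutation p = 0.0571).

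Hsp90ab1 encodes the constitutive cytosolic Hsp90 and lies on chromosome 17 from 45567775 to 45573271. It had 3298, 3257, 3308 and 3288 CPM in miR-690oe and 3486, 3560, 3594 and 3586 CPM in controls, with all miR-690oe libraries lower. The log2 fold change was -0.11 ± 0.043 (limma adjusted p = 0.0438). This call was lost when any 1 of the 8 libraries was left out, with adjusted p from 0.0521 to 0.113 at log2 fold changes of -0.12 to -0.11, and after quantile normalization (-0.03, limma adjusted p = 0.578).

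Hsp90aa1, the heat-inducible Hsp90 gene on chromosome 12 from 110690605 to 110702728, went the other way. It had 266.8, 282.7, 280.7 and 271.6 CPM in miR-690oe and 252.7, 248.4, 244.2 and 247 CPM in controls. Every miR-690oe library was above every control library. The log2 fold change was 0.15 ± 0.040 (limma adjusted p = 0.00604), or 1.11-fold, and the adjusted p was 0.00322 to 0.0212 with any 1 library left out. Other annotated genes share 58.5% of its 50-base stretches, most of them with the gene model Gm12346, whereas for Hsp90ab1 the share was 4.49%. The sum of both Hsp90 genes was 3539 to 3589 CPM in miR-690oe and 3739 to 3838 CPM in controls.

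The ratio of Hsp90aa1 to Hsp90ab1 within a library does not depend on how that library was scaled. It was 0.08092, 0.08681, 0.08485 and 0.0826 in miR-690oe and 0.07249, 0.06978, 0.06796 and 0.06889 in controls. The 2 groups did not overlap, and the ratio was 1.2-fold higher in miR-690oe, with a difference in log2 ratio of 0.26 ± 0.030 (SE). An exact two-sided permutation test gave p = 0.0286, the smallest that 4 against 4 libraries allow, and 0.0857 adjusted over the 3 ratios tested. Each of the 2 genes already separated the groups, in opposite directions. The separation of the ratio and its unadjusted p follow from that and are no further support. With the trend over transcript length and GC content removed from each library, the difference was 0.16 and its adjusted exact permutation p was 0.0571.

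**Figure D2:**
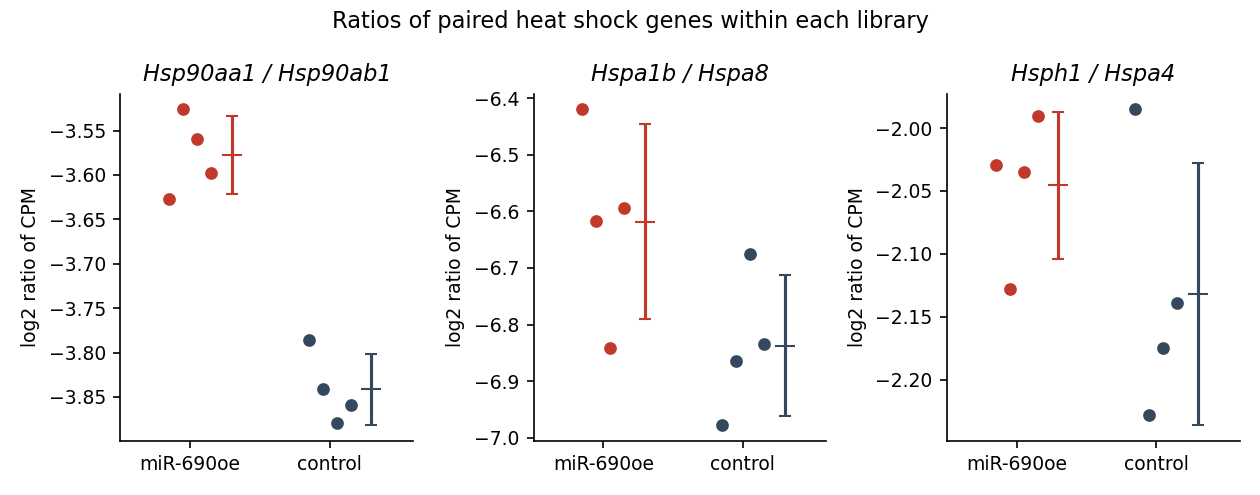
Log2 ratio of CPM within each library for Hsp90aa1 over Hsp90ab1, Hspa1b over Hspa8 and Hsph1 over Hspa4, with 4 miR-690oe libraries at the left (red) and 4 control libraries at the right (blue) of each panel, and the mean and SD beside them. In the first panel the groups do not overlap, and in the others they do.

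Hsph1 and Hspa4 encode Hsp110 proteins, large relatives of Hsp70 that act as its nucleotide exchange factors. Hsph1, on chromosome 5 from 149614287 to 149636376, had 84.14, 92.07, 92.92 and 96.79 CPM in miR-690oe and 91.42, 76.72, 77.85 and 75.94 CPM in controls. Control replicate 1 was as high as the miR-690oe libraries, and the other controls lay below all of them. The log2 fold change was 0.19 ± 0.061 (limma adjusted p = 0.0208), or 1.138-fold. It was 0.25 without control replicate 1 (limma adjusted p = 0.00263). The call was lost without miR-690oe replicate 4 (0.0602) or without control replicate 2 (0.066), 3 (0.0538) or 4 (0.0712), at log2 fold changes of 0.16 to 0.17, and after quantile normalization (0.14, limma adjusted p = 0.0836).

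Hspa4, on chromosome 11 from 53259814 to 53300457, had 343.5, 402.5, 380.9 and 384.5 CPM in miR-690oe and 361.9, 359.3, 351.5 and 334.6 CPM in controls. Here miR-690oe replicate 1 lay among the controls and the other miR-690oe libraries were above them. The log2 fold change of 0.10 ± 0.050 missed the threshold (limma adjusted p = 0.11), and passed it without miR-690oe replicate 1 (0.15, limma adjusted p = 0.0119). The ratio of Hsph1 to Hspa4 was 0.2288 to 0.2517 in miR-690oe and 0.2135 to 0.2526 in controls, a difference of 0.09 ± 0.060 in log2 ratio (exact two-sided permutation p = 0.229, also 0.229 adjusted over 3 ratios). It was 0.15 with the trend over length and GC content removed (adjusted exact permutation p = 0.0571). No 50-base stretch of either transcript occurs in another annotated gene.

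Dnajb1 encodes Hsp40, a heat-inducible J protein that hands clients to Hsp70 and, with it, restrains Hsf1, and its gene lies on chromosome 8 from 83608193 to 83612653. Its values were 63.63, 70.06, 69.03 and 66.16 CPM in miR-690oe and 70.66, 73.8, 69.96 and 71.56 CPM in controls, overlapping only at the edges. The log2 fold change was -0.09 ± 0.047 (limma adjusted p = 0.134, and 0.0198 after quantile normalization, at -0.15). Hspb1, known as Hsp25 in the mouse, binds unfolding proteins without ATP, and its gene lies on chromosome 5 from 135887919 to 135889563. It was scarce, with 63 to 97 reads per library, and had 1.988, 2.256, 2.093 and 2.018 CPM in miR-690oe and 2.451, 2.504, 2.519 and 2.868 CPM in controls. All miR-690oe libraries were lower, but the log2 fold change of -0.25 ± 0.108 missed the threshold (limma adjusted p = 0.0693). It passed when the variance was not modelled as a trend over level (limma adjusted p = 0.00482), and the authors' deposited table gave Hspb1 a false discovery rate of 0.0353. The pseudogene Hsp25-ps1 shares 51.6% of the 50-base stretches of Hspb1.

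Hsf1, on chromosome 15 from 76477422 to 76501913, had 39.05, 36.37, 36.18 and 38.8 CPM in miR-690oe and 38.76, 38.57, 39.03 and 38.41 CPM in controls. Replicates 2 and 3 of miR-690oe were lower than every control and replicates 1 and 4 lay in or near the control range. The log2 fold change was -0.04 ± 0.050 (limma adjusted p = 0.522). Hsf2, a related factor that can pair with Hsf1, stood at 20.46 ± 0.925 CPM in miR-690oe and 17.73 ± 0.972 CPM in controls (SD, n = 4 each). It rose by 0.20 ± 0.062 on the log2 scale (limma adjusted p = 0.0152), with no overlap between the groups. Its call was lost without control replicate 1 (0.0528), after quantile normalization (0.0778) and with the trend over length and GC removed (0.0808).

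Fold changes in this comparison rose with transcript length across all genes. Unless stated otherwise, the fold changes above were computed with that trend left in. The median log2 fold change was -0.19 over 1558 genes with transcripts under 1500 nt, -0.08 over 2320 genes from 1500 to 2500 nt, 0.02 over 3125 genes from 2500 to 4000 nt and 0.20 over 3610 genes of 4000 nt or more. The members that fell were shorter, with transcripts of 2394 nt for Hspa8 and 2520 nt for Hsp90ab1, than those that rose, with 3281 nt for Hsp90aa1 and 3802 nt for Hsph1. With a spline trend over length and GC content removed from each library, 0 members were called higher and 1 lower, against 7.34% and 9.06% of 10613 genes (16.4% in either direction). Hspa8 kept its call, at -0.14 ± 0.040 (limma adjusted p = 0.0268). It lost that call when replicate number was also fitted as a block (-0.14, limma adjusted p = 0.0586). Hsp90aa1 (0.08, limma adjusted p = 0.128), Hsp90ab1 (-0.08, 0.211) and Hsph1 (0.10, 0.282) missed the threshold. Hspa4 and Hsf1 changed sign without passing the test, to -0.05 and 0.04 (limma adjusted p = 0.539 and 0.512). The part that length has in the calls was otherwise not tested.

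**Figure D3:**
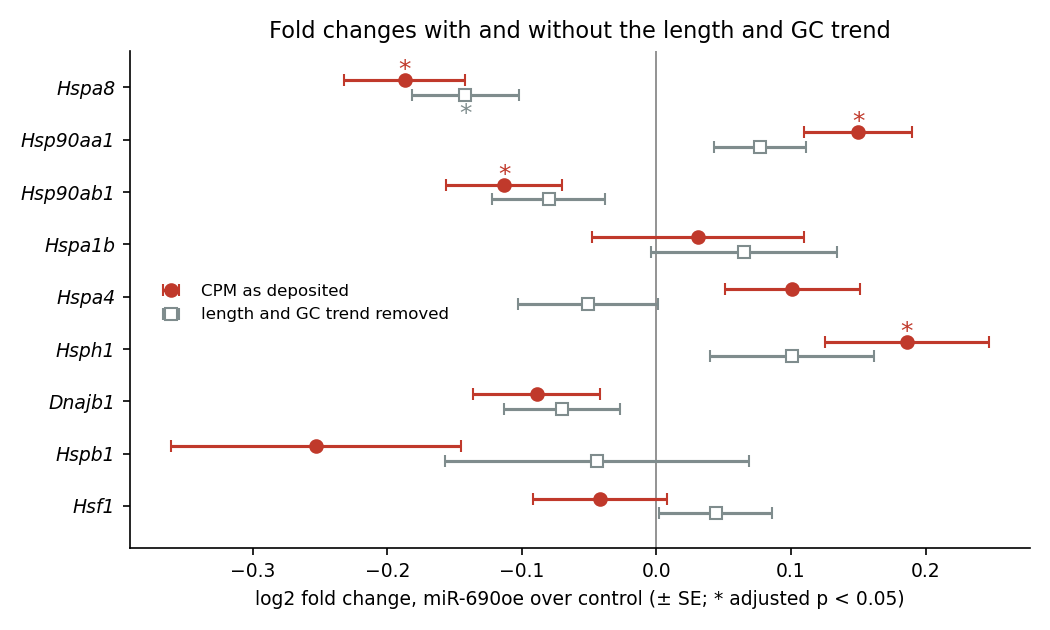
Log2 fold change, miR-690oe over control, with its SE for the 9 genes, from CPM as deposited (red circles) and with the trend over length and GC removed (open grey squares). Asterisks mark an adjusted p under 0.05, which 4 genes reached as deposited and 1, Hspa8, with the trend removed.

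**Figure D4:**
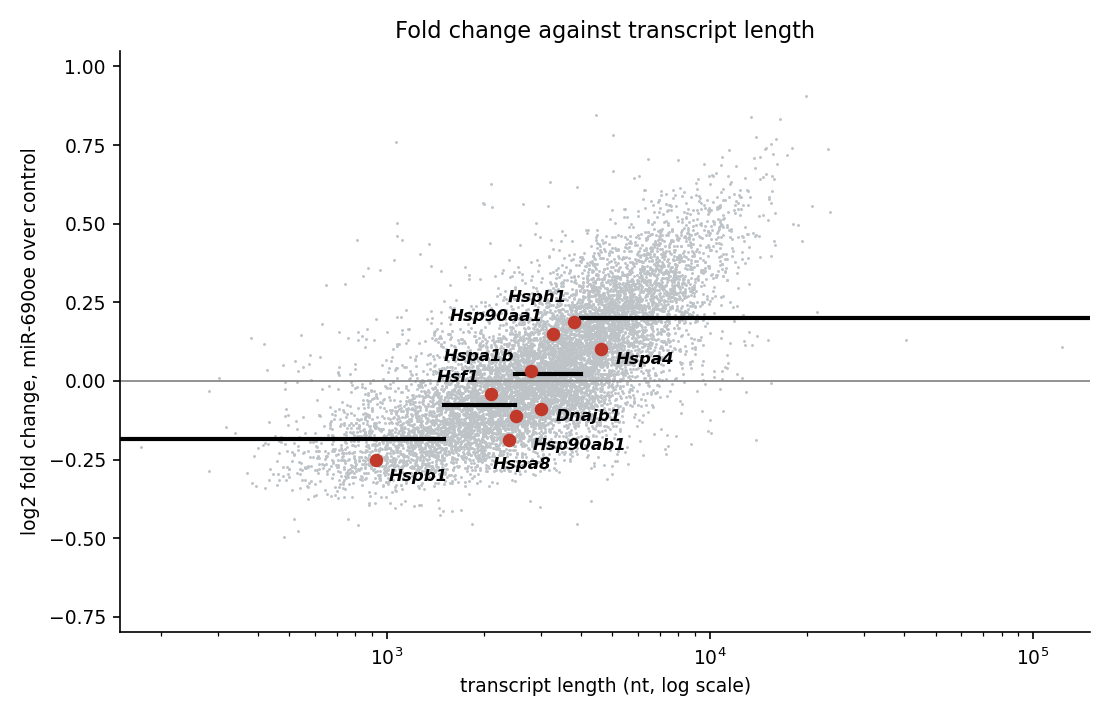
Log2 fold change, miR-690oe over control, against the length of the longest annotated coding transcript on a log axis, for all genes with a length (grey points) and the 9 heat shock genes (red). Black bars give the median of each length class, which goes from -0.19 under 1500 nt to 0.20 at 4000 nt or more.

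Heat shock elements were looked for as letters in RefSeq promoter windows of GRCm38.p6, which run from 250 bases before to 50 bases after a start site and were at hand for 6 of the 10 genes. A pair of inverted repeats was searched as GAANNTTC or TTCNNGAA, and 3 repeats in a row as the pair continued by NNGAA after TTC or by NNTTC after GAA, so that every triple contains the pair. Each search is the same on either strand. The pair occurred in 15.1% and the triple in 0.603% of all 32851 windows. Over the 10844 windows of listed genes these were 11.5% and 0.48%. The windows that held a match are shown for Hsph1, which was called higher, and for Hspa1b and Hspb1, which were not called, with the matches in capitals and all read 5′ to 3′ on the strand of the gene. They lie at chr5:149636287-149636586 (minus strand), chr17:34959189-34959488 (minus strand) and chr5:135887669-135887968 (plus strand).
Hsph1: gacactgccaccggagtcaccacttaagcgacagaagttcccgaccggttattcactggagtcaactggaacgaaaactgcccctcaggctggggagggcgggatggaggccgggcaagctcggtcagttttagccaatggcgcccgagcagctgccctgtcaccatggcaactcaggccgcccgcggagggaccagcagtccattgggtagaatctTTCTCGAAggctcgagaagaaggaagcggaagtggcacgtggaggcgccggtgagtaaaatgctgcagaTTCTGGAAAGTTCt
Hspa1b: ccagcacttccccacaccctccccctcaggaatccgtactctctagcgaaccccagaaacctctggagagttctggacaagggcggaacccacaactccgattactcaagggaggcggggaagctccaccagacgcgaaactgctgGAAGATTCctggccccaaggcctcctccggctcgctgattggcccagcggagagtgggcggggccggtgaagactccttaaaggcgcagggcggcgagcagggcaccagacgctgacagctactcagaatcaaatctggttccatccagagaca
Hspb1: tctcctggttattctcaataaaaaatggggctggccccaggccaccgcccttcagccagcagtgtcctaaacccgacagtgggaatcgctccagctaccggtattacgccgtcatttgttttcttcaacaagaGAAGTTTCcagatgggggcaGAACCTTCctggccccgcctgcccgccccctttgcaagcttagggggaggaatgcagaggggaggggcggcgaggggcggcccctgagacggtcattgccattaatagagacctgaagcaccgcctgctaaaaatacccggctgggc

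The Hsph1 window held the triple, starting at position 37 counted from the start site, and a separate pair starting 33 bases before it. The other annotated window of Hsph1 overlaps this one and held the same matches. In Hspa1b the pair began 104 bases before the start site, and the window of Hspa1a differed from it at 4 of 300 positions and held the pair at the same place. Hspb1 held 2 pairs, beginning 117 and 97 bases before the start site. The window of Hspa4 and both windows of Dnajb1 had no match to these letters. The promoters of Hspa8, Hsp90aa1, Hsp90ab1 and Hsf1 were not used here.

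The microRNA itself, mmu-miR-690 in RefSeq, is shown with its seed, bases 2 to 8, in capitals, because a seed match in a 3' UTR is the usual mark of a direct target.
mmu-miR-690: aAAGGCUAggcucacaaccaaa
Its DNA match, TAGCCTT, was searched in the annotated 3' UTR of the longest coding transcript of each gene. None of the 9 members had one, against 11.9% of 10367 listed genes with a 3' UTR. The 3' UTRs of the members were 83 nt (Hspa8) to 1834 nt (Dnajb1) long, where the median over all genes was 1143 nt, so several gave little room for a match.

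Related genes were written down as 4 lists of chaperones and cochaperones and 1 list of the Hsf family and Hsf1 regulators, most of which are not chaperones. Of 55 chaperone and cochaperone genes tested, 10 rose and 13 fell, which is 18.2% and 23.6%, against 26% and 17.4% of all genes. Their median log2 fold change was -0.02 against 0.02 over all genes. With the trend over length and GC removed 2 were higher and 6 lower, or 3.64% and 10.9%, against 7.34% and 9.06% of all genes.

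**Figure D5:**
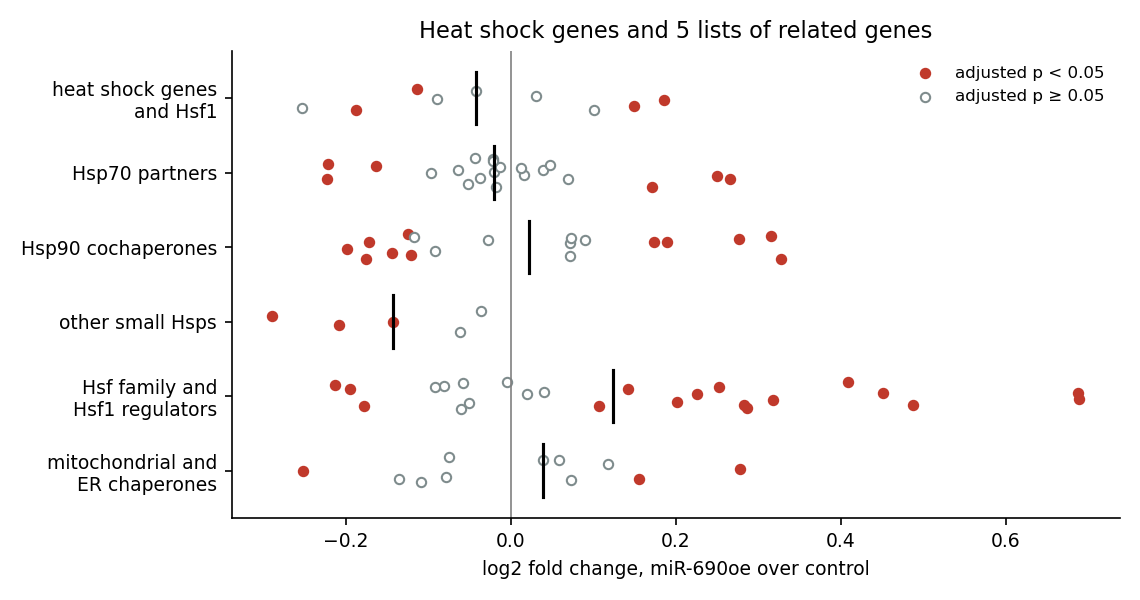
Log2 fold change, miR-690oe over control, of the 9 heat shock genes and of 5 lists of related genes, 1 point per gene, filled where the adjusted p was under 0.05. Black bars are medians, from -0.14 for the other small heat shock proteins to 0.12 for the Hsf family and Hsf1 regulators (-0.005 with the trend over length and GC removed).

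Among 21 cytosolic Hsp70 partners 3 rose and 3 fell, 14.3% each way, against 26% and 17.4% of all genes. Dnajb4, a J protein related to Dnajb1, had 72.01 ± 1.8 CPM in miR-690oe and 59.83 ± 2.15 CPM in controls (SD, n = 4 each) and rose 1.202-fold (limma adjusted p = 0.000309, and 0.00577 with the trend over length and GC removed). The J protein gene Dnajc5 rose 1.125-fold and Hspa4l, another Hsp110 gene, 1.19-fold. Bag1 and Hspbp1, which are nucleotide exchange factors, stood at 0.857 and 0.858 of control, and Stub1, a ubiquitin ligase that tags chaperone clients, at 0.893 (limma adjusted p = 0.00415, 0.00983 and 0.0113). Apart from Dnajb4, these 5 genes missed the threshold with the trend removed, with limma adjusted p of 0.15 to 0.436, and Hspa4l and Dnajc5 turned to -0.15 and -0.07 on the log2 scale. In that fit Dnajb4 was called higher. The J protein gene Dnaja1, at -0.23, and Bag6, at -0.12, were called lower (limma adjusted p = 0.00782 and 0.037). These calls were 4.76% higher and 9.52% lower, against 7.34% and 9.06% of all genes. Neither Dnaja1 nor Bag6 was called as deposited, and both, like Cdc37 in the next list, were picked for mention after their values were seen.

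Of 18 Hsp90 cochaperones 5 rose and 6 fell, which is 27.8% and 33.3%, against 26% and 17.4% of all genes. Fnip2 and Fnip1, which slow the ATP cycle of Hsp90 and bind folliculin, rose 1.256-fold and 1.244-fold, Tsc1, an Hsp90 cochaperone better known from the mTOR pathway, 1.212-fold, and Cdc37l1 1.14-fold. Sugt1, an adaptor between Hsp90 and its clients, stood at 0.888 of control (limma adjusted p = 0.0083). With the trend removed, 1 of the list was higher and 3 were lower, or 5.56% and 16.7%, against 7.34% and 9.06% of all genes. Sugt1 passed at -0.50 and Cdc37, which brings kinases to Hsp90, at -0.45 (limma adjusted p = 8.05e-05 and 0.000584), and Fnip1, Fnip2, Tsc1 and Cdc37l1 did not. The Sugt1 and Cdc37 transcripts used for that trend were 7392 and 7851 nt long, and which transcripts of them these cells make was not tested.

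Small heat shock proteins other than Hspb1 had 0 higher and 3 lower of 5 tested. Over all genes 26% were higher and 17.4% lower, and of the 1558 genes with transcripts under 1500 nt 876 were lower. Cryab, the alpha B crystallin gene, had 93.62 ± 13.4 CPM in miR-690oe and 113.6 ± 6.26 CPM in controls (SD, n = 4 each), which gave a log2 difference of -0.29 ± 0.081 (SE, limma adjusted p = 0.00891). Hspb6 and Hspb8 stood at 0.866 and 0.905 of control (limma adjusted p = 0.0147 and 0.033). Their transcripts are 1117, 1363 and 1816 nt long, and none was called with the trend removed (limma adjusted p = 0.41, 0.658 and 0.701).

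Of 24 tested genes of the Hsf family and of Hsf1 regulators, 13 rose and 3 fell, which is 54.2% and 12.5%, against 26% and 17.4% of all genes. Their median log2 fold change was 0.12 as deposited and -0.005 with the trend over length and GC removed. The acetyltransferase genes Ep300 and Crebbp, whose products modify Hsf1, rose 1.612-fold and 1.61-fold. Gsk3b, a kinase that restrains Hsf1, rose 1.402-fold, Trim33, a ubiquitin ligase, 1.367-fold, the nuclear export factor gene Xpo1 1.328-fold, and the nucleoporin gene Nup98 1.19-fold. Many of these proteins act on a great number of others. With the trend removed, 3 genes of the list were higher and 2 lower, or 12.5% and 8.33%, against 7.34% and 9.06% of all genes. Those higher were Ep300, Crebbp and Gsk3b, with 0.37, 0.35 and 0.16 on the log2 scale (limma adjusted p = 0.000114, 0.000461 and 0.00741). Chaperones of the mitochondria and the endoplasmic reticulum had 2 higher and 1 lower of 11, or 18.2% and 9.09%, against 26% and 17.4% of all genes. Hspa13 and Hsp90b1, both of the endoplasmic reticulum, rose 1.212-fold and 1.114-fold, and Grpel1, the mitochondrial exchange factor, stood at 0.84 of control (limma adjusted p = 0.000585). With the trend removed 0 of the 11 were higher and 1 was lower, or 0% and 9.09%, against 7.34% and 9.06% of all genes. The 1 lower was Grpel1 (limma adjusted p = 0.000448).

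Genes with the pattern most like that of a member were ranked by the mean absolute difference between z-scores over the 8 libraries. For Hspa8 the nearest were the proteasome gene Psmb1 at 0.063 and the ribosomal protein genes Rps15a at 0.072 and Rpl7 at 0.077, where the median over all genes was 1.171, and Dnajb1 was the nearest other member at 0.422. For Hsph1 the nearest were Jun, an AP-1 gene, at 0.106, Spry2 at 0.133 and Ptgs2, the inducible cyclooxygenase gene, at 0.166. Jun stood at 36.3, 44.6, 43.22 and 51.01 CPM in miR-690oe and at 42.23, 31.09, 30.53 and 29.36 CPM in controls, with control replicate 1 high as for Hsph1. For Hsf1 the nearest were Rsl1 at 0.202, Lmna at 0.224 and Crlf2 at 0.225. Each of these is a description over 8 libraries from 2 groups.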

How the data were processed

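RNA was sequenced from 8 libraries of 3T3-L1 adipocytes, 4 labelled miR-690oe and 4 labelled control. Per the submitters' processing notes, Trimmomatic 0.38, edgeR 3.20.9 and mm10 were used, with no role given. The aligner, the read counter and strand use: not given in the sources used here. Although the file calls its values RPKM, every library column deposited by the authors summed to 1000000, and the values were taken as CPM. They were also whole multiples of 1 step per library (100% within 0.1 read). Reads per library, their chi-square values and counting errors are inferred from that step and rest on each step being 1 read. A stricter check did not accept them as recovered counts, so no count model was fitted. Per the file headers, the deposited table has, per gene, the authors' log2 values (fold change, mean CPM), a likelihood ratio score, and a p-value with its false discovery rate. The design had assumed RPKM, and its test was kept for CPM.

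Genes were kept where 4 or more libraries reached 0.5 CPM. The test was limma 3.58.1 under R 4.3.3, on log2(CPM + 0.5) (variance trend, two-sided, Benjamini-Hochberg over all genes, threshold 0.05), so fold changes of low genes are understated. Ratios were compared with exact permutation tests over 70 label orders in Python 3.11.15. Both were tested on simulated data, which for limma held neither a trend over length nor a library apart from its group. Transcript lengths, GC content, 3' UTRs and shared 50-base stretches came from GENCODE M21, on the build of mm10, by symbol or older symbol (10618 of 10663 entries matched). The length and GC trend was a natural spline with 5 degrees of freedom for each, fitted to every library's deviations from gene means. Alternatives were the pseudocount, filter, scaling, variance model, library weights, threshold, a replicate block, trend removal and leaving out each library. The members and lists were chosen with earlier results of these data known. Named genes were all members, Hsf2, up to 6 called genes of lowest adjusted p per list, and the 3 genes most like Hspa8, Hsph1 and Hsf1. Hspa1a was not listed, so its sum with Hspa1b was not formed. A gene picked by the rule for named genes is not reported here.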

Additional observations from a re-analysis of the deposited data

Results flagged for a closer look

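Groups of 4 libraries were checked for a value far from the others in 24 sets, and 2 stood out, where chance gives about 1 in 20. Hsph1 in control replicate 1 stood at 91.42 CPM, against 75.94 to 77.85 CPM in the other controls. Hspb1 in control replicate 4 stood at 2.868 CPM, against 2.451 to 2.519 CPM in the other controls, at a depth of 97 reads. Hsph1 was called with and without its library, and Hspb1 was called neither with nor without its library (limma adjusted p = 0.184 without it).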

How the results depend on the processing

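The 9 members, Hsf2 and the counts of calls were recomputed under the alternatives named above, except that Hspb1 has no value at a filter of at least 5 CPM. The 3 ratios were recomputed with a pseudocount, the trend removed, the replicate block and each library left out. With the trend over length and GC removed, 779 genes were higher and 962 lower, the members had 0 higher and 1 lower, and the genes of the 5 related lists 5 higher and 8 lower (23 and 16 as deposited). Together with the replicate block these were 530 and 682, 0 and 0, and 4 and 6. Quantile normalization gave 1 member higher and 1 lower, where 2207 of all genes were higher and 2545 lower. Of all calls 46.4% were then higher, against 59.9% as deposited. At a threshold of 0.01, 1988 of all genes were higher and 1059 lower. The members then had 1 higher and 1 lower, and 8 genes of the related lists were lower. With 1 library left out, the members had 1 to 3 higher and 1 lower, where 2351 to 2798 of all genes were higher and 1405 to 2013 lower. The replicate block alone left 1 member lower, where 1642 of all genes were lower, with Hsp90ab1 at a limma adjusted p of 0.0645. All other counts, under these and the remaining settings run, were within 1.5 times.

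Direction changed for Hspa1b to -0.023 after quantile normalization and to -0.002 without miR-690oe replicate 1 (range -0.002 to 0.085 with 1 library left out), and for Hspa4 to -0.051 and Hsf1 to 0.044 with the trend removed, with and without the replicate block. None of these was called. Deviations of same-numbered libraries correlated at -0.301, 0.305, -0.098 and -0.319, and those of other-numbered libraries at -0.274 to 0.326. So few values cannot settle whether replicate numbers pair the libraries. The cause of these changes was not tested. Ratios with 1 library left out are values with no test, and ran from 0.247 to 0.282 for Hsp90aa1 over Hsp90ab1, 0.153 to 0.294 for Hspa1b over Hspa8 and 0.054 to 0.135 for Hsph1 over Hspa4. The 2 count models and the sum of Hspa1a and Hspa1b were not run. Depth limits Hspb1 most, since its reads per library give a counting error of 10.2% or more.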
